A study of Mus musculus with 13 samples.

Results

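Cells with transcripts of dendritic cells were picked out of 2 droplet single-cell libraries of mouse hindlimb muscle. A cell was taken when it held at least 5 unique molecular identifiers (UMIs, each standing for 1 captured transcript molecule) of the MHC class II gene H2-Aa and at least 1 UMI of Cd209a, Flt3, Clec10a or Xcr1. It could hold at most 1 UMI summed over the complement genes C1qa, C1qb and C1qc, which mark tissue macrophages, and no UMI of the B cell genes Cd79a, Cd79b and Ms4a1 or the T cell gene Cd3d. This gate held 39 of 6144 cells in library 1 (0.635%, exact Clopper-Pearson 95% interval 0.452 to 0.867) and 43 of 6297 cells in library 2 (0.683%, 0.495 to 0.919), together 82 of 12441. The members were chosen by counts measured in the same cells, so their values against other cells are a description and no test was run. Intervals cover counting error only.

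Both libraries came from uninjured muscle of wild-type C57BL/6 mice aged 2 months, which was dissociated mechanically and enzymatically and captured with 10x 3' chemistry. The labels do not say that the libraries come from separate animals, so the spread between them may be technical. A further 11 bulk libraries of sorted muscle cells in the series were not used here. Comparisons are made between cell populations within each library.

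Dendritic cells take up antigen in tissues, cut it into peptides and show these on MHC class II molecules to T cells. Conventional dendritic cells form a type 1 lineage, marked in mice by Xcr1 and Clec9a, and a type 2 lineage, for which Cd209a, Clec10a and Mgl2 are common markers. Mature cells gain Ccr7, the receptor that guides them to lymph nodes, while plasmacytoid dendritic cells, known for making type I interferon, carry Siglech and little MHC class II.

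Promoters of class II genes are shown first, since these genes lead the description of the gated cells. Class II promoters are known to carry a set of boxes, of which the Y box holds an inverted CCAAT sequence bound by the factor NF-Y. A total of 7 motif forms were looked at on both strands: the letters GATTGG, whose inverse contains CCAAT, then CCAAT itself, the longer CTGATTGG that contains GATTGG, and 4 spellings of the X box that overlap each other. GATTGG and a window of 150 bases before the start were chosen after their matches were seen. The genes listed for class II presentation include Ctss, Ifi30 and Lgmn, which do not encode class II chains. Of that list, 11 were found in the RefSeq promoter table of GRCm38.p6, while H2-Ab1, Cd74, Ciita and March1 were not. On the gene's own strand GATTGG lay in 7 of the 11: H2-Aa, H2-Eb1, H2-Eb2, H2-DMb1, H2-DMb2, H2-Oa and H2-Ob. Of all 32851 promoters, 5.78% held it on that strand in that window and 10.9% on either strand. Over 250 bases, 8 of the 11 held it, against 7.73% of promoters. Within 150 bases on either strand, CCAAT was in 8 of the 11 and 24.5% of promoters. The longer CTGATTGG was in 4 of the 11 and 3.16% of promoters. The X box spellings were in 1 to 4 of the 11 and in 0.189% to 0.572% of promoters. A match says only that these letters lie in the window. The windows below run 5′ to 3′ on the gene's strand and end at the base before the start, with GATTGG in capitals: H2-Aa at chr17:34287824-34287973 (minus strand), and H2-Eb1 at chr17:34305717-34305866, H2-DMb1 at chr17:34153041-34153190 and H2-DMb2 at chr17:34145099-34145248 (plus strand).
H2-Aa: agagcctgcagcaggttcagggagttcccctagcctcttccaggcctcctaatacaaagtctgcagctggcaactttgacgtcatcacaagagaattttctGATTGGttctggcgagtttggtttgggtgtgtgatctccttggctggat
H2-Eb1: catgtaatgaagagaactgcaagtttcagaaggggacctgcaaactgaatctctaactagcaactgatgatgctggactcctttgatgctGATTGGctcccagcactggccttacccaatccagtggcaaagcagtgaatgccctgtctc
H2-DMb1: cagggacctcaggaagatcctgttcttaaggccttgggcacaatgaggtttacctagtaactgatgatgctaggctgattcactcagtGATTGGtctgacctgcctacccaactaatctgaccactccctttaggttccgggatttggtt
H2-DMb2: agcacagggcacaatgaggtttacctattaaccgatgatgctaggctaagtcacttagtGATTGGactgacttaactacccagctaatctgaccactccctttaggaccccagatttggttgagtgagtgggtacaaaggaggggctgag
GATTGG begins 49 bases before the start in H2-Aa, 60 in H2-Eb1, 62 in H2-DMb1 and 91 in H2-DMb2.

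The gated cells held more UMIs than the rest of their libraries. Their medians were 6449 and 5170 UMIs and 1775 and 1518 genes in libraries 1 and 2, against 2500 and 2016.5 UMIs and 1048 and 891 genes in all other cells. Summed over the gated cells, 232362 and 214595 UMIs were available, so that 1 UMI stood for 4.30 and 4.66 CPM (a gene's UMIs scaled to a total of 1000000), and a gene with no UMI is limited to 12.9 and 14.0 CPM by the 3 counts that a count of 0 allows. Ptprc, which encodes the pan-leukocyte protein CD45, had a UMI in 31 of 39 and 24 of 43 gated cells. The doublet caller Scrublet marked 0 gated cells, but it marked only 0.0635% of all cells in library 2 and did not work there. A total of 53 barcodes occurred in both libraries, 1 of them on a gated cell. From here on, pairs of values are those of library 1 and library 2.

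The gated cells were set beside other populations picked by marker counts. Macrophage-type cells held at least 5 C1q UMIs and no B or T cell gene, B-type cells held Cd79a with Cd79b or Ms4a1, and endothelial-type cells held Pecam1 or Cdh5 and no Ptprc. To compare shares of cells with a UMI, each cell was thinned to 1500 UMIs, which left out 1 and 0 gated, 4 and 7 macrophage-type, 60 and 272 B-type and 258 and 313 endothelial-type cells. Median depths before thinning were 6449 and 5170 UMIs in gated, 4339 and 3133.5 in macrophage-type, 2217 and 1637 in B-type and 2099.5 and 1910 in endothelial-type cells.

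Most cells that met the H2-Aa minimum were left out by the other conditions. Of 1911 and 1113 cells with at least 5 H2-Aa UMIs, 146 and 163 had no UMI of the B and T cell genes, and 85 and 124 of these met the C1q limit. Of those, 46 and 81 had none of the 4 dendritic genes. The H2-Aa limit divided few cells, since 4 and 4 gated cells held 5 to 10 UMIs while 0 and 0 cells met the other conditions with 3 or 4 and 22 and 16 with 0 to 2. A further 32 and 20 cells failed only by a UMI of a B or T cell gene. At the C1q limit, 1 and 0 cells failed with 2 to 4 UMIs and 29 and 7 with 5 or more. A single UMI over the 4 dendritic genes admitted 6 and 11 of the gated cells.

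The marker genes that admitted the cells are given first, as a description. Cd209a, a C-type lectin, had a UMI in 29 and 31 gated cells and a summed level of 1007 and 1109 CPM in gated cells, against 5.81 and 6.67 CPM in all other cells. Flt3, the receptor for the growth factor that dendritic precursors need, had a UMI in 22 and 12 gated cells. Its level was 138 and 83.9 CPM in gated cells and 1.73 and 1.05 CPM in other cells. Clec10a, another C-type lectin, differed between the libraries, with a UMI in 20 and 4 gated cells. Its level was 241 and 23.3 CPM in gated cells and 6.64 and 2.09 CPM in other cells. In library 2 macrophage-type cells held more Clec10a than gated cells, at 68.7 CPM. Thinned, Clec10a was found in 28.9% and 2.33% of gated and 15.1% and 4.94% of macrophage-type cells. Unthinned, the shares were 51.3% and 9.30% of gated and 36.1% and 13.6% of macrophage-type cells. H2-Aa was at 12592 and 12134 CPM in gated cells and 1705 and 991 CPM in other cells. Clec10a thus entered the gate mainly in library 1, while Cd209a was found in most gated cells of both.

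Genes outside the gate did not describe a single cell type. In library 1, 8 of 39 gated cells (20.5%, 9.30 to 36.5) held 9 to 16 UMIs of Siglech, a lectin of plasmacytoid dendritic cells. In library 2, 3 of 43 (6.98%, 1.46 to 19.1) held 2 to 6. The other 31 and 40 gated cells held at most 1, and the minimum of 2 UMIs was chosen after these counts were seen. The gate is thus not 1 conventional dendritic population, and the Siglech-positive cells are described apart.

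**Figure D1:**
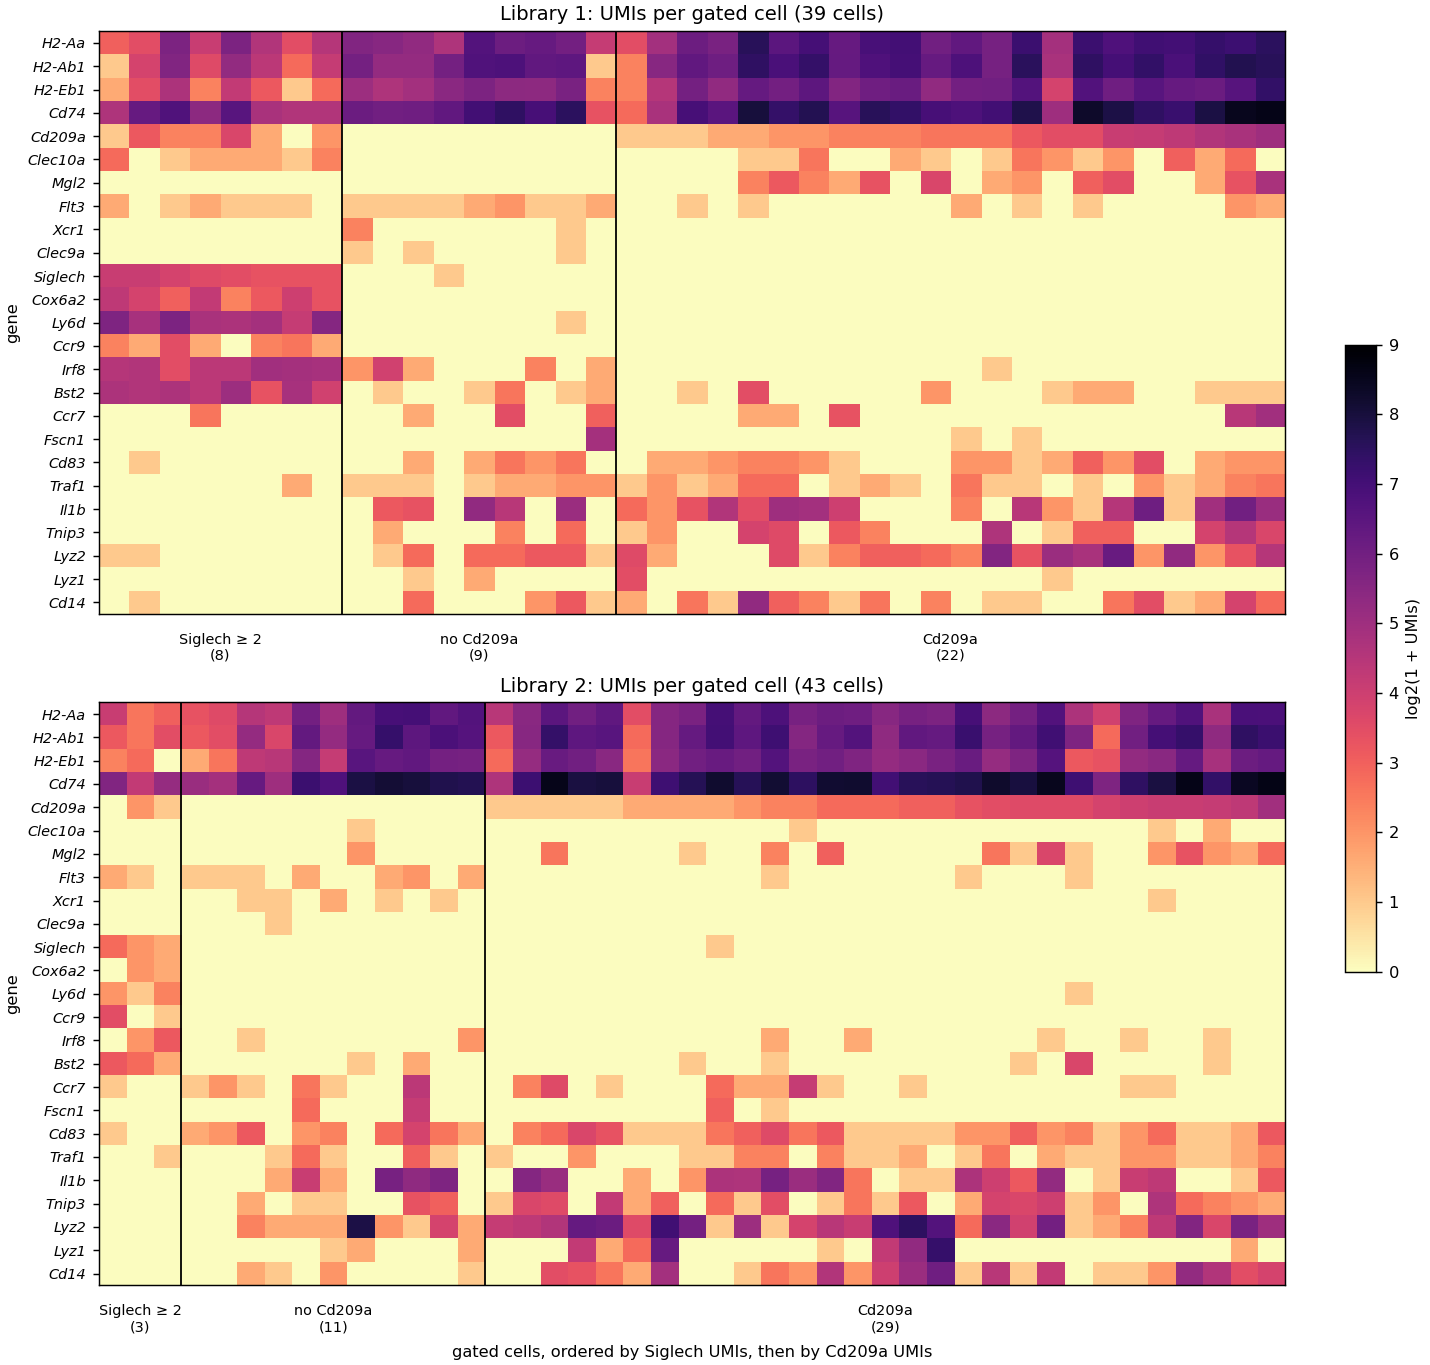
UMIs of 25 genes (rows) in each gated cell (columns) of library 1 (upper panel, 39 cells) and library 2 (lower panel, 43 cells), coloured by log2(1 + UMIs). Vertical lines part the cells with at least 2 Siglech UMIs (8 and 3), the others without Cd209a (9 and 11) and those with Cd209a (22 and 29); in the first block Siglech, Cox6a2 and Ly6d are found, class II counts are low and Il1b is at 0.

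Other genes of the plasmacytoid list lay in the same cells. In library 1, all 8 Siglech-positive cells held Cox6a2 (4 to 19 UMIs), Ly6d (17 to 53) and the transcription factor Irf8 (10 to 30), and 7 held the chemokine receptor Ccr9. Among the other 31 gated cells of library 1, 0 held Cox6a2 or Ccr9 and 1 held a single Ly6d UMI. The 3 Siglech-positive cells of library 2 were shallow, with a median of 1995 UMIs. Of these, 2 held Cox6a2, 3 held Ly6d, 2 held Ccr9 and 2 held Irf8.

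These cells held less MHC class II and had 0 UMIs of Il1b and Tnip3. Cd74, the invariant chain that escorts class II molecules, was at 8589 and 11940 CPM in Siglech-positive cells, against 25256 and 39111 CPM in the other gated cells. H2-Ab1, the beta chain that pairs with H2-Aa, was at 3210.4 and 2692 CPM in Siglech-positive and 16947 and 15399 CPM in other gated cells. For Il1b, the 0 UMIs in the Siglech-positive cells of either library allow up to 62.5 and 351 CPM, against 2603 and 2815 CPM in the other gated cells. Tnip3, an inhibitor of NF-kappaB signalling, was at 748 and 912 CPM in the other gated cells. Ccl4, an inflammatory chemokine, was found in both kinds of gated cell, at 667 and 234 CPM in Siglech-positive and 917 and 311 CPM in other gated cells, the Siglech-positive level resting on 32 and 2 UMIs. Bst2, an interferon-induced surface protein, stood higher in them, at 3648 and 1873 CPM in Siglech-positive and 174 and 92.2 CPM in other gated cells. Tcf4, a transcription factor that plasmacytoid cells need, was at 1084 and 117 CPM in Siglech-positive and 81.3 and 102 CPM in other gated cells. It stood apart in library 1, while its Siglech-positive level in library 2 rested on 1 UMI, too few to compare.

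Transcripts usually named for lymphocytes were also found in the Siglech-positive cells. Ighm, the heavy chain of immunoglobulin M, was at 1001 and 1170.5 CPM in Siglech-positive cells, against 86.8 and 97.1 CPM in the other gated cells. After thinning, Ighm was found in 28.9% and 23.3% of all gated cells, against 15.1% and 19.8% of macrophage-type and 4.58% and 6.15% of endothelial-type cells; unthinned, the shares were 48.7% and 44.2% of gated, 40.2% and 30.7% of macrophage-type and 6.03% and 8.20% of endothelial-type cells. Cd8b1, a T cell coreceptor chain, was at 667 and 351 CPM in Siglech-positive and 0 and 4.85 CPM in other gated cells, and Cd7, a surface protein of lymphocytes, at 729.6 and 1288 CPM in Siglech-positive and 97.6 and 38.8 CPM in other gated cells. Plac8 was at 3461 and 2224 CPM in Siglech-positive and 379.6 and 131 CPM in other gated cells. Cd79a, Cd79b, Ms4a1 and Cd3d are at 0 in all gated cells by the rule, and the part of B or T cell RNA in these values was not tested. A further 9 and 5 cells with at least 2 Siglech UMIs lay outside the gate.

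The remaining gated cells were mostly Cd209a-positive, but so were 7 of 8 and 2 of 3 Siglech-positive cells. Cd209a thus did not set the Siglech-positive cells apart. Clec10a had a UMI in 7 and 0 Siglech-positive cells, at 375 and 0 CPM, against 206 and 24.3 CPM in the other gated cells. There were 22 and 29 cells with Cd209a and fewer than 2 Siglech UMIs, with medians of 5 and 6 and highest counts of 31 and 30 Cd209a UMIs. Mgl2, a C-type lectin of type 2 dendritic cells and of some macrophages, had a UMI in 13 and 13 of them. Of the 9 and 11 cells with neither Cd209a nor 2 Siglech UMIs, 0 and 1 held Mgl2. Within the gate, Mgl2 was therefore found almost wholly beside Cd209a. Cd209a is a gate gene and cells with none of the 4 dendritic genes were left out, so the rule itself favours this. In macrophage-type cells, unthinned, Mgl2 was found in 78.4% and 35.2% and Cd209a in 13.4% and 7.95%.

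Cells with the type 1 marker were few. Xcr1, a chemokine receptor, was found without Cd209a in 2 of 39 gated cells in library 1 (5.13%, 0.627 to 17.3) and 5 of 43 in library 2 (11.6%, 3.89 to 25.1), and 0 and 1 cells held both. Clec9a, a receptor for dead cells, was found in 3 and 1 gated cells, 2 and 1 of them with Xcr1 and no Cd209a. Those cells held 8 and 2 UMIs of Naaa, a lysosomal amidase, 0 and 0 of Batf3, a transcription factor of the type 1 lineage, and 0 and 0 of Mgl2. They held 14 and 12 UMIs of Ppt1, a lysosomal thioesterase, 6 and 2 of Cadm1, an adhesion molecule, 2 and 14 of Ifi205, an interferon-induced gene, 4 and 5 of Rab7b, a small GTPase, and 3 and 3 of Wdfy4, which type 1 cells need to present antigen taken up from other cells. With 10786 and 21489 UMIs summed over all genes in them, these counts rest on few molecules. Among all gated cells with fewer than 2 Siglech UMIs, Cadm1 was at 233 and 63.6 CPM in those without Cd209a, against 7.78 and 6.29 CPM in those with it, and Ifi205 at 340.4 and 339 CPM in those without Cd209a and 15.6 and 0 CPM in those with it. Batf3 was at 143 and 106 CPM in those without Cd209a and 23.3 and 107 CPM in those with it. The values without Cd209a include the Xcr1-positive cells and rest on 13 and 3 UMIs of Cadm1 and 19 and 16 of Ifi205. In library 2, 14 of the 16 Ifi205 UMIs lay in the Xcr1-positive cells without Cd209a, and 1 gated cell held 10.

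Ccr7 was spread over cells with and without Cd209a. It was found in 9 of 39 gated cells in library 1 (23.1%, 11.1 to 39.3) and 18 of 43 in library 2 (41.9%, 27.0 to 57.9), and 6 and 5 cells held 5 or more UMIs. Thinned, the share was 15.8% and 27.9% of gated cells, against 3.23% and 1.23% of macrophage-type, 55.9% and 47.0% of B-type and 1.53% and 5.01% of endothelial-type cells (unthinned, 3.09% and 3.41%, 67.3% and 53.1% and 2.11% and 4.94% of these 3). In gated cells with Ccr7, Il4i1, an amino acid oxidase of mature dendritic cells, was at 248 and 509 CPM, against 17.5 and 15.8 CPM in those without. Fscn1, an actin-bundling protein of mature dendritic cells, was at 463 and 351 CPM in cells with Ccr7 and 11.6 and 0 CPM in those without. Single cells set much of this: 1 cell held 28 of 30 Fscn1 UMIs in library 1 and 1 held 17 of 31 in library 2, and for Il4i1 the counts were 13 of 18 and 33 of 47.

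Against all other cells, 217 of 13872 genes were at least 2-fold higher in gated cells in both libraries and 528 at least 2-fold lower, where the population with more of the gene reached 50 CPM in each library. These are 1.56% and 3.81% of the genes compared, or 7.6% and 18.5% of the 2855 that met the CPM minimum. Folds are on the log2(CPM + 10) scale, which understates the change of low genes, and the 12 gate genes are left out. The median log2 difference over all genes was -0.24 and -0.28. Against only those other cells with a Ptprc UMI (1870 and 970 cells), 170 genes were higher and 168 lower, which is 1.23% and 1.21% of the genes compared, or 6.9% and 6.82% of the 2465 that met the minimum. In the lists that follow, higher and lower mean past this rule.

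MHC class II genes were higher in both libraries. Of 14 genes listed for class II presentation, with H2-Aa left out, 8 were higher and 0 lower, with a median log2 difference of 1.87 and 2.68. H2-Ab1 was at 14112 and 14893 CPM in gated cells, against 1723 and 1216 CPM in all other cells. H2-Eb1, the beta chain of the second class II molecule, was at 8022 and 9110.2 CPM in gated cells and 992 and 656 CPM in other cells, and Cd74 at 21815 and 38030 CPM in gated cells and 3953 and 3658.5 CPM in other cells. H2-Aa chose the cells, so a high level of its partners is no independent support for the label.

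Genes that load peptides onto class II were higher too. H2-DMa, a chain of the heterodimer that exchanges peptides, was at 912 and 741 CPM in gated cells, against 164 and 75.5 CPM in all other cells. H2-DMb1, a beta chain of that heterodimer, was at 637 and 489 CPM in gated cells and 52.9 and 28.4 CPM in other cells. H2-DMb2, its neighbouring close copy, was at 344 and 228 CPM in gated cells and 241 and 118 CPM in other cells, under 2-fold, and reads may be split between the pair. Ctss, the protease that trims the invariant chain, was at 1239 and 955 CPM in gated cells and 207 and 96.6 CPM in other cells. Ctss did not pass the rule against macrophage-type cells, which held it at 1193 CPM in library 2. Ciita, the regulator of class II transcription, had only 2 and 4 UMIs in gated cells.

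B-type cells also carried class II, and they were set beside the gate. Against these 1623 and 751 cells, 2.1% of all genes were at least 2-fold higher in gated cells in both libraries and 1.72% lower, or 11.1% and 9.1% of the 2626 that met the CPM minimum. Of the 14 class II genes, 6 were higher and 2 lower. H2-Ab1 was at 14112 and 14893 CPM in gated cells, against 6007 and 5786 CPM in B-type cells, and Cd74 at 21815 and 38030 CPM in gated cells and 14592 and 20585 CPM in B-type cells, under 2-fold. H2-DMb2 was lower at 344 and 228 CPM in gated cells and 999 and 824 CPM in B-type cells, as was H2-Ob, a chain of the molecule that holds peptide exchange back. The genes furthest above B-type cells included Il1b, Lyz2, a lysozyme, and Fcer1g, an Fc receptor adaptor, and those furthest below included Igkc and Ebf1.

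Class II UMIs were also found in endothelial-type cells, and how much free RNA the droplets held was not tested. After thinning, H2-Ab1 was found in 94.7% and 100% of gated cells, against 8.65% and 20.5% of endothelial-type cells. Unthinned, the shares were 100% and 100% of gated against 11.3% and 27.4% of endothelial-type cells. The gated shares lay above the endothelial-type shares in both libraries. Dcn, a proteoglycan of fibroblasts, was found after thinning in 5.26% and 34.9% of gated cells, against 25.6% and 31.9% of endothelial-type cells (unthinned, 35.9% and 62.8% of gated against 36.4% and 44.3% of endothelial-type cells). Its share in gated cells was below the endothelial-type share in library 1 and above it in library 2, where the source of its UMIs was not tested and 1 gated cell of library 2 held 28 of 71 Dcn UMIs.

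MHC class I genes differed little. Of 16 listed, 0 were higher and 0 lower, with a median log2 difference of 0.65 and 0.18. B2m, the light chain of class I, was at 4897.5 and 2735 CPM in gated cells, against 2896 and 2448 CPM in all other cells. H2-K1, a heavy chain, was at 1196 and 895 CPM in gated cells and 889 and 937 CPM in other cells, with opposite signs in the libraries.

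Genes of the type 2 list were higher as well as lower. Of 13 counted, 6 were higher and 2 lower. Cd7, 1 of the higher ones, lay mainly in the Siglech-positive cells described above and was at 97.6 and 38.8 CPM in the other gated cells. Mgl2 was at 422 and 289 CPM in gated cells, against 17.9 and 8.57 CPM in all other cells. It did not pass the rule against macrophage-type cells, which held it at 264 CPM in library 2. Thinned, Mgl2 was found in 26.3% and 20.9% of gated and 49.5% and 25.9% of macrophage-type cells. Unthinned, the shares were 33.3% and 32.6% of gated and 78.4% and 35.2% of macrophage-type cells. Of the 13 genes, 3 were higher than in macrophage-type cells (Napsa, Plbd1 and Cd7) and 0 lower. Plbd1, a lysosomal phospholipase-like protein, was at 323 and 284 CPM in gated cells and 11.2 and 7.72 CPM in other cells. Tnip3 was at 594 and 876 CPM in gated cells and 13.9 and 21.1 CPM in other cells and had the largest mean log2 difference among the genes ranked, with 4.66 and 4.83. The 2 lower genes were Klf4, a transcription factor, and Ltb, a lymphotoxin chain.

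The other dendritic lists gave smaller counts. Of 14 core genes, 5 were higher and 0 lower, the higher ones being Gpr132, Amica1, Runx3, Slamf7 and P2ry10. Of 16 type 1 genes, 2 were higher and 1 lower. Of 20 mature genes, 3 were higher and 3 lower. Cd86, a costimulatory ligand for T cells and one of the higher ones, was at 164 and 270.3 CPM in gated cells, against 50.2 and 38.3 CPM in all other cells. Neither Cd86 nor Slamf7 was higher than in macrophage-type cells. In library 2 macrophage-type cells held Cd86 at 322 CPM. Slamf7 was at 107 CPM in gated and 199 CPM in macrophage-type cells of library 2. Compared with macrophage-type cells, 4 of the core and 5 of the mature genes were higher and 0 of either lower. Itgax, which encodes CD11c, had 11 and 10 UMIs in gated cells and stayed under the CPM minimum.

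The plasmacytoid list followed the number of Siglech-positive cells. Of 9 genes, 2 were higher and 0 lower, the higher ones being Siglech and Ccr9. Irf8 was at 887 and 103 CPM in gated cells, against 125 and 151 CPM in all other cells, and Ly6d at 1179 and 41.9 CPM in gated cells and 307 and 127 CPM in other cells, with 8 and 3 Siglech-positive cells in the gate. In the other gated cells Irf8 was at 141 and 53.4 CPM and Ly6d at 5.42 and 4.85 CPM. The high level of these genes in library 1 lay in 8 cells.

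Genes shared by the myeloid lineage were higher as well. Tyrobp, the signalling adaptor of many myeloid receptors, had a UMI in 39 and 40 gated cells, or thinned in 97.4% and 83.7% of gated against 1.15% and 1.14% of endothelial-type cells. It was at 2608 and 1505 CPM in gated cells, against 188 and 109 CPM in all other cells. Fcer1g was at 1506 and 1277 CPM in gated cells and 186 and 107 CPM in other cells. Spi1, a transcription factor that myeloid cells need, was at 357 and 447 CPM in gated cells and 43.7 and 41.3 CPM in other cells. Of 10 pan-leukocyte genes, 7 were higher and 0 lower, and of 21 myeloid transcription factors, 6 were higher and 2 lower. Clec4b1, a C-type lectin of myeloid cells, was at 198 and 242 CPM in gated cells and 4.08 and 3.53 CPM in other cells, and of 13 C-type lectin genes, 3 were higher and 0 lower. Set against macrophage-type cells, 1 of the 13 was higher, which was Clec4b1, and 4 were lower.

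Il1b, a fever-inducing cytokine, was high but uneven from cell to cell. It had a UMI in 23 and 27 gated cells, with medians of 3 and 2 and highest counts of 66 and 58 UMIs. Its level was 2066 and 2703 CPM in gated cells, against 101 and 68.3 CPM in all other cells. Thinned, it was found in 52.6% and 58.1% of gated cells, against 19.4% and 16.0% of macrophage-type and 1.40% and 1.72% of endothelial-type cells. Unthinned, these shares were 59.0% and 62.8% of gated, 25.8% and 18.2% of macrophage-type and 1.63% and 3.16% of endothelial-type cells. Of 15 cytokine genes, 1 was higher and 2 lower, Il1b being the higher one.

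Single cells also set the level of some chemokines. Ccl5, which attracts T cells, was at 1420.2 and 517 CPM in gated cells, against 186 and 222 CPM in all other cells, past the 2-fold rule. In library 1, 1 cell held 309 of 330 of its UMIs, and in library 2, 1 held 72 of 111. Ccl9, a chemokine of myeloid cells, was at 284 and 1160.3 CPM in gated cells and 63.3 and 49.6 CPM in other cells. Of 19 chemokine ligands, 5 were higher and 5 lower. Lyz1, a lysozyme, was at 60.3 and 1491 CPM in gated cells and 27.0 and 38.9 CPM in other cells, and 1 and 5 cells held 10 or more of its UMIs, up to 155 in library 2.

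Lysosomal genes were among the higher ones. Of 18 listed, 9 were higher and 0 lower. This did not hold against macrophage-type cells, where 0 of the 18 were higher and 5 lower. The median log2 difference from macrophage-type cells was -0.51 and -1.05. Cst3, a cathepsin inhibitor, was at 8327.5 and 6449 CPM in gated cells, against 2158.5 and 2498 CPM in all other cells. Ctsh, a cathepsin, was at 899 and 317 CPM in gated cells and 154 and 93.8 CPM in other cells. H2afz, a histone variant, was at 2806 and 2428 CPM in gated cells and 515 and 809 CPM in other cells. It belongs to 18 listed cell cycle genes, of which 1 was higher and 0 lower. Mki67, a protein of dividing cells, had 3 and 0 UMIs in gated cells.

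**Figure D2:**
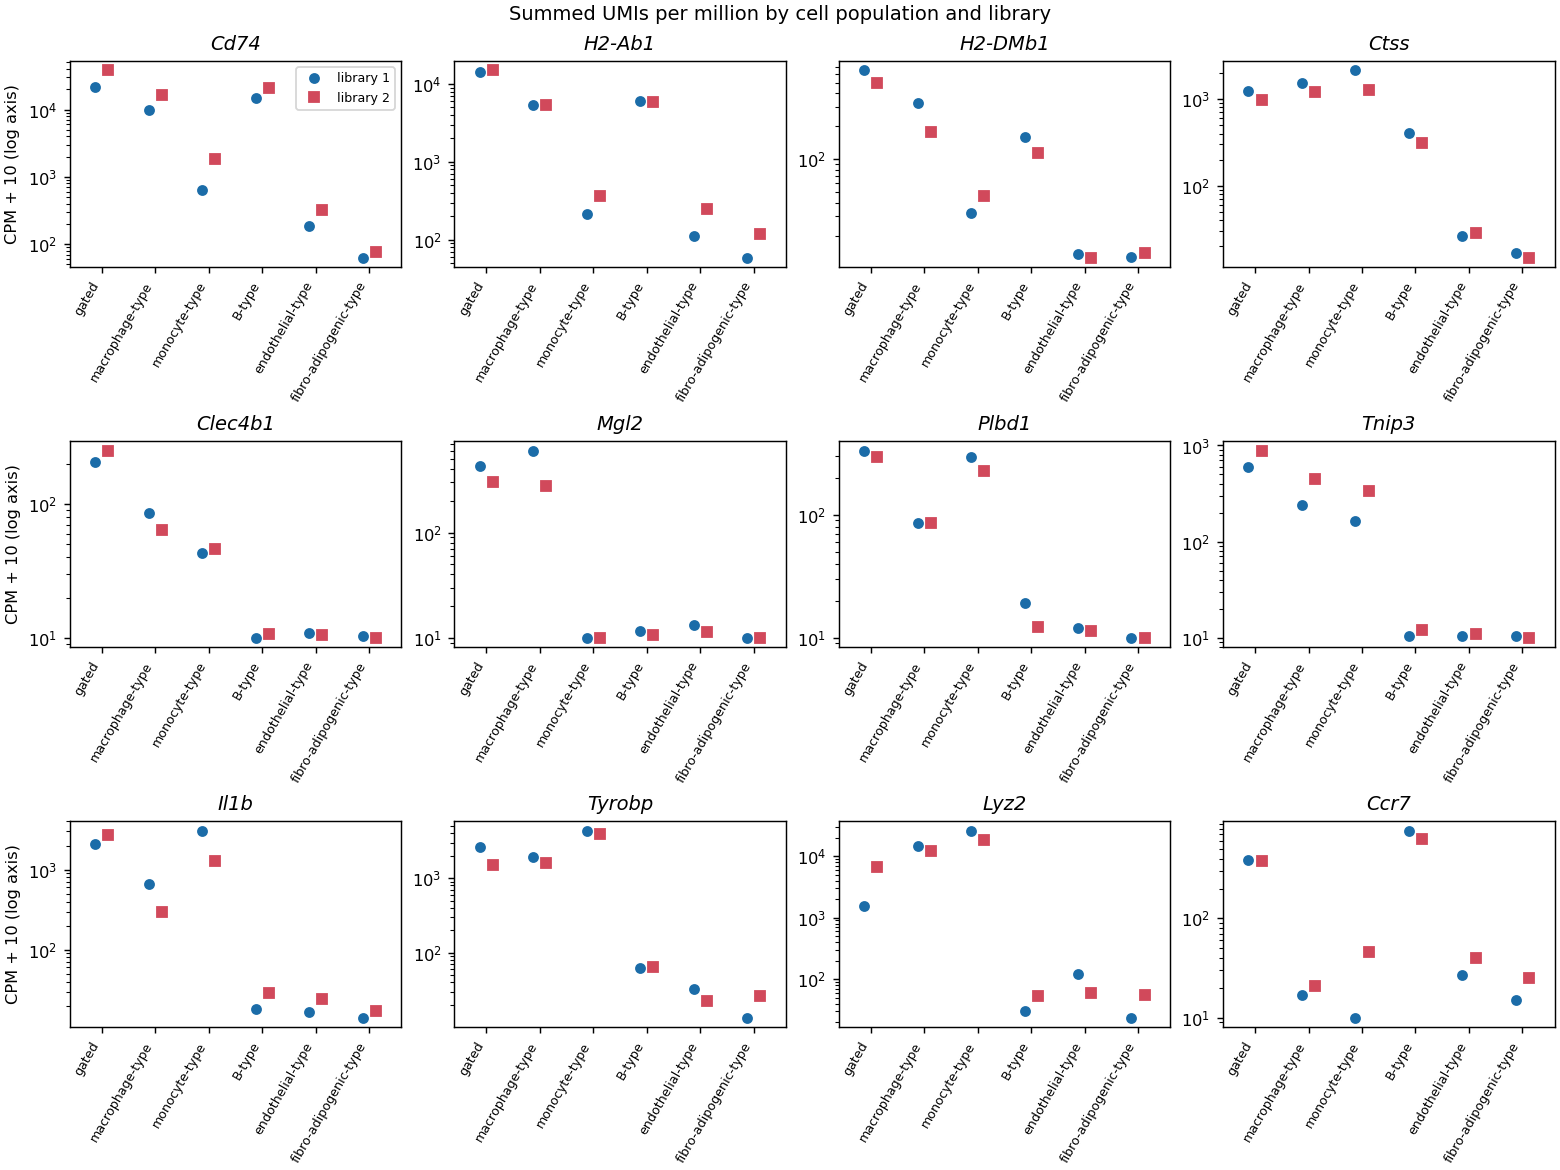
Summed CPM plus 10 (log axis) of 12 genes in gated, C1q-positive macrophage-type, monocyte-type, B-type, endothelial-type and fibro-adipogenic-type cells, 1 point per library. Cd74, H2-Ab1 and H2-DMb1 are highest in gated cells in both libraries, while Lyz2 is lower in gated than in macrophage-type cells and Ccr7 is highest in B-type cells.

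The genes lower than in all other cells included those of stroma and vessels. Dcn was at 77.5 and 331 CPM in gated cells, against 6489 and 5704 CPM in all other cells, and Col1a1, a collagen chain, at 25.8 and 154 CPM in gated cells and 2086 and 1616.5 CPM in other cells. The other 8 lowest by the mean log2 difference were Sparc, Igfbp6, Meg3, Gpx3, Ebf1, Serpinf1, Serpinh1 and Col1a2. Of 12 fibro-adipogenic genes 11 were lower, of 11 endothelial genes 9 and of 8 tenocyte genes 6, with 0 higher in each. Of 17 immediate early and heat shock genes, which dissociation is known to induce, 0 were higher and 7 lower. Fos, an immediate early transcription factor, was at 658 and 345 CPM in gated cells and 1866 and 1174 CPM in other cells.

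Marker genes of T, B and natural killer cells and of neutrophils had lower summed levels in gated than in other cells. The sum of monocyte genes went the other way. The 18 listed summed to 4226 and 9609 CPM in gated cells, against 2322 and 1533 CPM in all other cells. Of these, 3 were higher (Ly6c2, Ccr2 and Cd14) and 1 lower (Ace). Lyz2 alone made up 6692 CPM of the sum in library 2. Plac8, also listed, was at 3461 CPM in Siglech-positive and 379.6 CPM in other gated cells of library 1. The 18 genes summed to 20678 and 19361 CPM in macrophage-type cells. Against those cells, 2 of the 18 were higher in gated cells and 4 lower. The 11 T cell genes outside the gate rule summed to 383 and 308 CPM in gated cells, against 854 and 587 CPM in all other cells, with Cd3g, Lck, Thy1 and Bcl11b at 0 UMIs in both libraries (Cd3d is at 0 by the rule). Il7r, an interleukin receptor, was the higher one of them, at 159 and 242 CPM in gated cells and 33.8 and 35.7 CPM in other cells. The 10 B cell genes outside the gate rule summed to 288 and 209.7 CPM in gated cells and 1334 and 628 CPM in other cells, with Pax5, Cr2 and Fcer2a at 0 (Cd79a, Cd79b and Ms4a1 are at 0 by the rule). The 8 natural killer genes summed to 8.61 and 4.66 CPM in gated cells and 86.6 and 75.6 CPM in other cells. The 12 neutrophil genes summed to 25.8 and 256 CPM in gated cells and 1168 and 2199.8 CPM in other cells. The part of these molecules in the results was not tested.

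Likeness between populations was not measured, and C1q-positive macrophage-type cells (97 and 88 cells) were set beside the gate as the main myeloid comparison. Against them, 136 genes were at least 2-fold higher in gated cells in both libraries and 280 lower, which is 0.98% and 2.02% of the genes compared, or 5.42% and 11.2% of the 2509 that met the CPM minimum. Both populations were picked by counts, so this too is a description.

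Receptors and a peptide-loading gene lay furthest above macrophage-type cells. Ccr7 was at 379 and 368 CPM in gated cells, against 7.05 and 10.8 CPM in macrophage-type cells. H2-DMb2 was at 344 and 228 CPM in gated cells and 2.35 and 14.5 CPM in macrophage-type cells. P2ry10, a lysophospholipid receptor, was at 151 and 144 CPM in gated cells and 0 and 3.62 CPM in macrophage-type cells, and Siglecg, an inhibitory lectin, at 94.7 and 224 CPM in gated cells and 0 and 0 CPM in macrophage-type cells. These genes were also high in B-type cells, with Ccr7 at 756 and 616 CPM and Siglecg at 195 and 152 CPM there. The other 8 of the 12 furthest above were Gcnt2, Wnt11, Ramp3, Klrb1b, Il1r2, Gpr171, Napsa and Plac8, at 60.3 to 1016 CPM in library 1 and 74.6 to 424 CPM in library 2. In library 2, B-type cells held more Gpr171, Napsa and Plac8 than gated cells, at 207, 276 and 532 against 154, 252 and 214 CPM. The rest of the 8 were lower in B-type cells of library 2. Plac8 lay mainly in the Siglech-positive cells in library 1, at 3461 CPM there and 379.6 CPM in the other gated cells.

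Class II genes were higher than in macrophage-type cells as well. Of 14, 7 were higher and 1 lower. H2-Ab1 was at 14112 and 14893 CPM in gated cells, against 5387 and 5340.2 CPM in macrophage-type cells, and Cd74 at 21815 and 38030 CPM in gated cells and 9859.7 and 16201 CPM in macrophage-type cells. The lower one was Lgmn, an endosomal protease, at 232 and 480.0 CPM in gated cells and 1130 and 1276 CPM in macrophage-type cells.

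Genes of resident macrophages lay furthest below. Of 17 counted, 0 were higher and 15 lower, with a median log2 difference of -4.29 and -3.65, or -3.95 and -2.97 with genes at 0 UMIs set to the 3-count limit of each library. Pf4, a chemokine, had 0 and 1 UMIs in gated cells, against 5304.5 and 4342 CPM in macrophage-type cells. Folr2, a folate receptor, had 0 UMIs and was at least 47.7-fold lower in library 1 and at least 27.7-fold lower in library 2. Lyve1, a hyaluronan receptor, also had 0 UMIs, at least 36.4-fold and at least 9.83-fold lower. Apoe, a lipid carrier, was at 25.8 and 116.5 CPM in gated cells and 13247 and 13461 CPM in macrophage-type cells. C5ar1, the receptor for complement C5a, had 1 and 1 UMIs, against 1139 and 1164 CPM in macrophage-type cells.

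**Figure D3:**
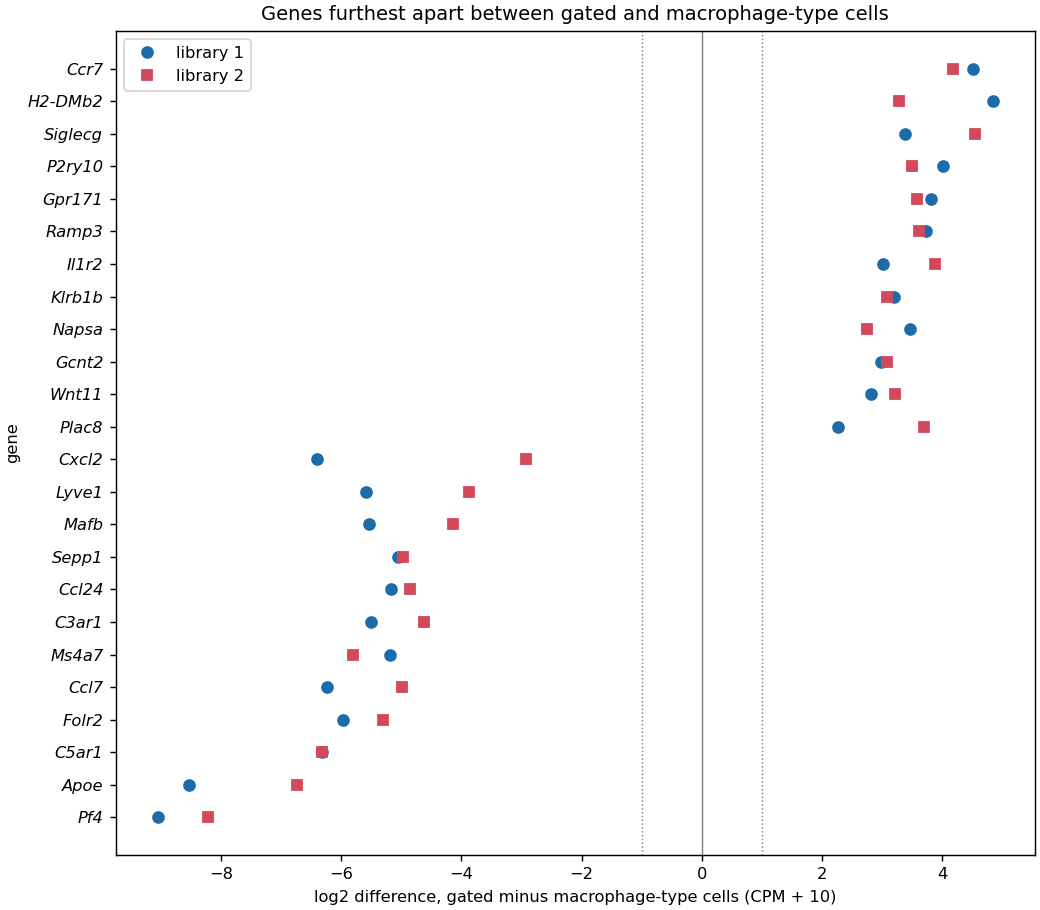
Log2 difference, gated minus C1q-positive macrophage-type cells, on the CPM + 10 scale, for the 12 genes furthest above and the 12 furthest below, 1 point per library; dotted lines mark 2-fold. All points lie beyond 2-fold, and the points of Cxcl2 lie furthest apart between the libraries.

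Several sensing and chemokine genes were also lower than in macrophage-type cells. Of 19 chemokine ligands, 1 was higher and 9 lower, the higher one being Ccl5. Cxcl2, a neutrophil attractant, was at 103 and 1873 CPM in gated cells, against 9564 and 14383 CPM in macrophage-type cells. Cd14, the lipopolysaccharide coreceptor, was at 538 and 1579.7 CPM in gated cells and 3723.5 and 5774 CPM in macrophage-type cells. Of 15 Toll-like and inflammasome genes, 0 were higher and 3 lower. Il1b was higher, at 2066 and 2703 CPM in gated cells and 653 and 282 CPM in macrophage-type cells. Lyz2 was at 1528 and 6692 CPM in gated cells and 14697 and 11928 CPM in macrophage-type cells, under 2-fold in library 2.

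Monocyte-type cells were few (17 and 9 cells, medians of 5645 and 3106 UMIs), and were picked for low H2-Aa and for Lyz2, Tyrobp and Csf1r. Against them 1.03% of genes were at least 2-fold higher in gated cells in both libraries and 1.33% lower, or 6% and 7.76% of those that met the CPM minimum. Ly6c2, a surface protein of inflammatory monocytes, was at 361.5 and 261 CPM in gated cells, against 1299 and 1336 CPM in monocyte-type cells, and 1 gated cell held 24 of 84 of its UMIs in library 1 and 1 held 36 of 56 in library 2. Ccr2, the receptor that brings monocytes into tissue, was at 168 and 126 CPM in gated cells and 601 and 542 CPM in monocyte-type cells. Mgl2 was at 422 and 289 CPM in gated cells and 0 and 0 CPM in monocyte-type cells. Cd14 was at 538 and 1579.7 CPM in gated cells and 3068 and 1697 CPM in monocyte-type cells. In library 2, Il1b was at 2703 CPM in gated and 1264 CPM in monocyte-type cells. Unthinned, it was found there in 62.8% of gated and 55.6% of monocyte-type cells. Neutrophil genes were high in the monocyte-type cells of library 2, with S100a8 at 8.61 and 88.5 CPM in gated cells and 2391 and 25597 CPM in monocyte-type cells, S100a9 at 8.61 and 116.5 CPM in gated cells and 1321 and 16463 CPM in monocyte-type cells, Ngp at 0 and 18.6 CPM in gated cells and 0 and 11517 CPM in monocyte-type cells, Camp at 0 and 4.66 CPM in gated cells and 0 and 8701 CPM in monocyte-type cells and Lcn2 at 0 and 4.66 CPM in gated cells and 0 and 2527 CPM in monocyte-type cells. Their part in the differences from monocyte-type cells was not tested.

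**Figure D4:**
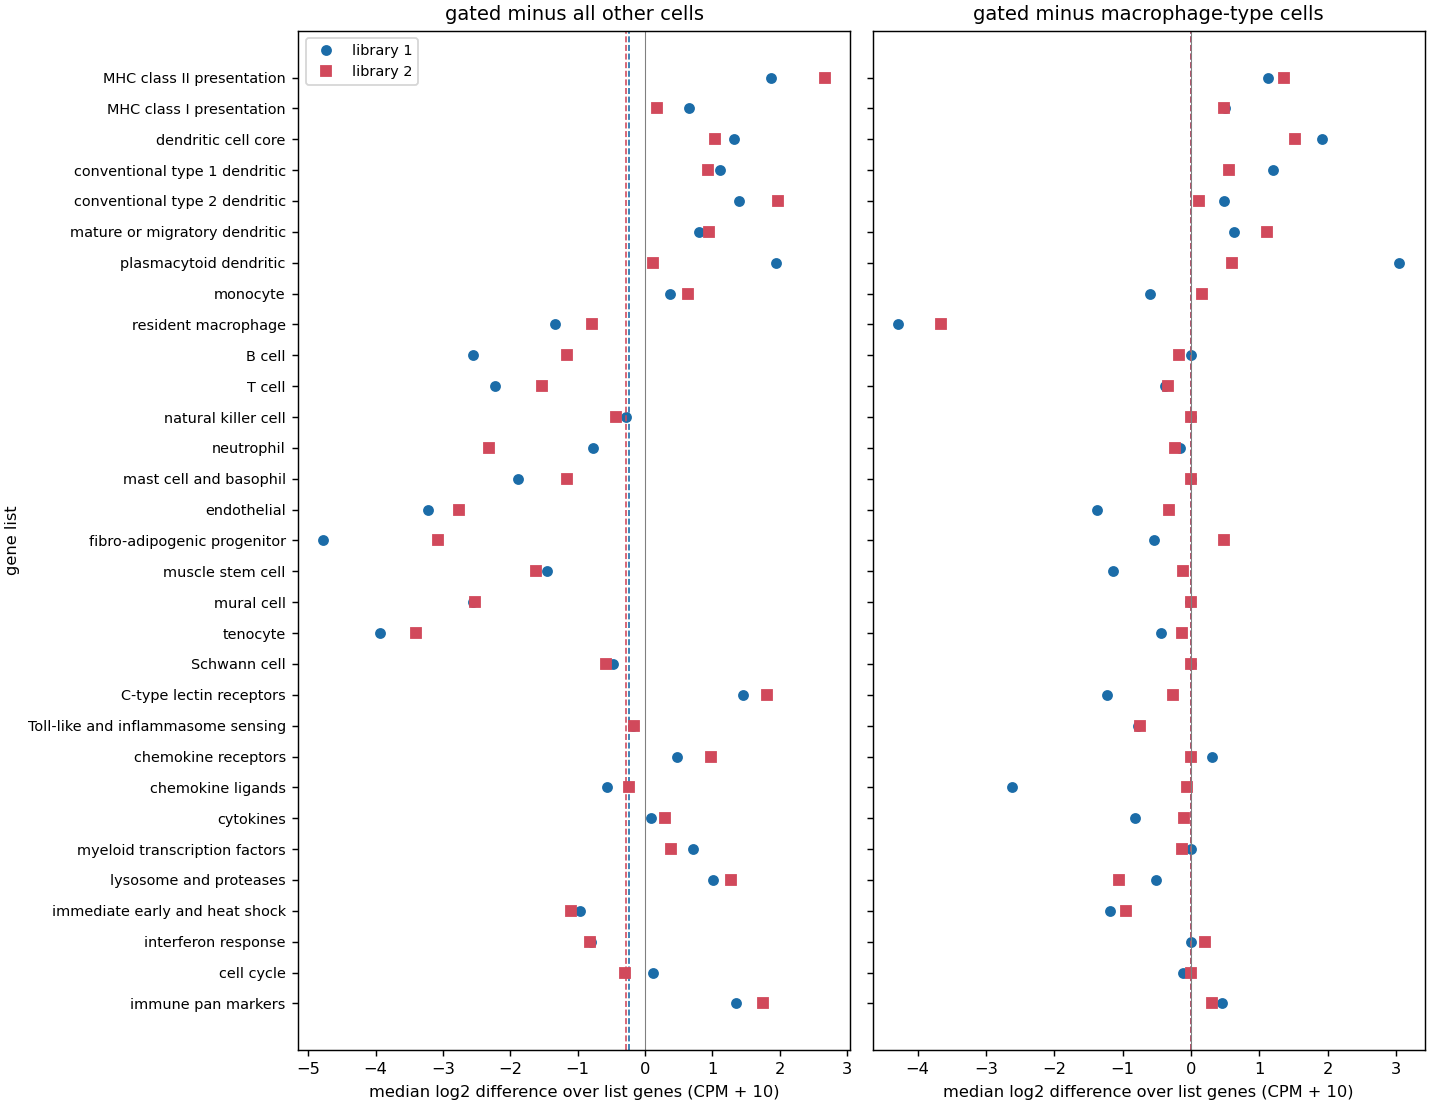
Median log2 difference over the counted genes of 31 gene lists, gated minus all other cells (left) and gated minus C1q-positive macrophage-type cells (right), 1 point per library; dashed lines mark the median of all genes. On the left the class II list is at 1.87 and 2.68, and on the right the resident macrophage list is lowest at -4.29 and -3.65.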

How the data were processed

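The authors deposited 1 filtered table of UMI counts per library, with genes in rows and cells in columns; the values are unnormalised counts. Cell Ranger 2.2.0, STAR 2.5.1b, R 3.5.1, Seurat 2.3.4 and the build mm10 are named per the submitters' processing notes; how cells were filtered before deposit is not stated in the labels. Library totals were 19353328 and 15507938 UMIs, with medians of 2516 and 2027 per cell. The gate was applied with Python 3.11.15, numpy 2.4.6, scipy 1.17.1 and pandas 2.3.3. UMIs were summed per population and library and scaled to CPM, and log2 differences were taken within each library with a pseudocount of 10 CPM. A gene was called at 2-fold or more in both libraries with at least 50 CPM in the higher population, and this rule was tested on simulated data. The simulated data held no 2-fold changes, no changed genes near the CPM minimum and no counts concentrated in single cells. No test was run between gated and other cells, because the cells were chosen on the same counts. Doublets were sought with Scrublet (scanpy 1.11.5) and not removed. Shares with a UMI were also taken after thinning each cell to 1500 UMIs. The members, comparison populations and gene lists were chosen with earlier results of these data known. Genes were named by rank of their mean log2 difference (20 higher and 10 lower than all other cells, 12 and 12 against macrophage-type, 6 and 6 against B-type cells, with a UMI in 20% of cells of the higher population), and from each list by level or a count of 0. Other genes named were chosen after their values were seen. Of 414 listed genes, 19 were missing from a table and not analysed. The alternatives were other gate limits, TMM factors (edgeR 4.0.16), another pseudocount, no CPM minimum, other cells with a Ptprc UMI, and each library left out.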

Additional observations from a re-analysis of the deposited data

How the results depend on the processing

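The share of cells in the gate, 0.659% as the mean of both libraries, was 0.523% with at least 2 UMIs over the 4 dendritic genes and 0.591% with cells thinned to 1500 UMIs. It was 0.570% without the cells with at least 2 Siglech UMIs, an alternative chosen after seeing the data. Without the CPM minimum, 1274 genes were lower than in all other cells, and 239 were higher and 494 lower than in macrophage-type cells. Against other cells with a Ptprc UMI, 170 genes were higher and 168 lower, where against all other cells the counts were 217 and 528, and the median log2 difference of the class II list was 1.54 in place of 2.27. With 1 library left out, the share ran from 0.635% to 0.683% and the class II median from 1.87 to 2.68. The genes higher than in all other cells then ran from 390 to 393 and those lower from 745 to 838, and against macrophage-type cells from 334 to 338 higher and from 558 to 583 lower; a gene then had to pass in 1 library only. TMM factors gave 265 genes higher and 449 lower than in all other cells. No paired analysis was possible because no test was run and each difference is taken within its library. Few cells carry the description of the Siglech-positive cells (8 in library 1 and 3 in library 2) and of the Xcr1-positive cells (2 and 6), and at this depth a gene with no UMI in the gate is limited to 12.9 and 14.0 CPM.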
